A study of Homo sapiens with 12 samples.

Results

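The proteasome is the large protease complex that degrades ubiquitin-tagged proteins in the cytoplasm and nucleus. Its 20S core is a barrel of outer alpha rings and inner beta rings, with the active sites on beta subunits, and the 19S regulatory particle, made of a base with a ring of ATPases and a lid, recognises, deubiquitinates and unfolds the substrates. Interferon signalling replaces the constitutive catalytic subunits PSMB5, PSMB6 and PSMB7 by PSMB8, PSMB9 and PSMB10, which form the immunoproteasome, and the activators PSME1 and PSME2 cap the core in place of the 19S particle. Subunit genes are expressed in nearly all cells, the epithelial cells of the kidney tubule included.

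The genes described here are the protein-coding genes with the symbols PSMA1 to PSMA8, PSMB1 to PSMB11, PSMC1 to PSMC6, PSMD1 to PSMD14 and PSME1 to PSME4, chosen by symbol without use of their values. They were 43 of the 62703 gene identifiers in the table, and each was found. They were sorted by role into the alpha ring (7 genes), the constitutive beta ring (7), the base of the 19S particle (9), its lid (8), chaperones of base assembly (3), the immunoproteasome (3), activators (4) and subunits restricted to single tissues (2).

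RNA-seq was performed in HK2 cells, an immortalised line of human proximal tubule epithelial cells, to ask what high glucose, suppression of FGF9 and overexpression of FGF9 do to gene expression. NG cells were kept in 5.5 mM glucose and received a control vector, and si-FGF9 cells, in the same glucose, received a small interfering RNA against FGF9 with lipofectamine 3000. HG cells were exposed to 50 mM glucose, and HG+OE-FGF9 cells had the same glucose and a lentivirus vector that overexpresses FGF9. Each group had 3 libraries, 12 in all. No control siRNA and no control vector in HG cells are described, so that HG may differ in vector from both NG and HG+OE-FGF9. The study's methods name the 5.5 mM glucose and the lentivirus. Its results section instead gives NG a mannitol medium and the overexpression vector as an adenovirus.

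The deposited values are TPM, transcript abundances that are scaled for gene length and to a fixed sum per library, so that levels of different genes can be set side by side but the depth of the libraries is unknown. FGF9 was listed at 0 in all NG, HG and si-FGF9 libraries and at 3.34, 4.03 and 3.82 TPM in HG+OE-FGF9, so that its suppression could not be checked. Of 12 proximal tubule markers, 5 reached 1 TPM in any library. The highest were GGT1, at 71.7 to 195 TPM, and PAX8, at 19.7 to 79.1 TPM over the 12 libraries. The endocytic receptors LRP2 and CUBN did not exceed 0.02 TPM and the transporter SLC22A6 was listed at 0 throughout. Of 6 epithelial markers 5 reached 1 TPM, of 6 immune markers 3, of 5 fibroblast markers 2, and of 4 endothelial markers 0. The epithelial marker that did not was CDH1 (E-cadherin), at most at 0.28 TPM. The epithelial list also holds CDH2 (N-cadherin), at 15.1 to 91.6 TPM. The immune markers summed to 129 to 138 TPM for NG, 119.9 to 127 for HG, 110.4 to 134 for si-FGF9 and 160.3 to 165 for HG+OE-FGF9, nearly all of it CD68, with PTPRC at most at 0.07 TPM, and their part in the results was not tested. Libraries had 11549 to 13949 genes at 1 TPM or more. Replicates 1 and 2 of HG+OE-FGF9 were the closest pair of replicates, with a median absolute log2 difference of 0.0848 between them and of 0.385 and 0.387 to replicate 3, and HG replicate 3 lay farther from HG replicates 1 and 2 (0.393 and 0.554) than these did from each other (0.287). Neither the labels nor the methods say that the replicates of a group were separate cultures, so p-values measure the spread between these libraries, and in bulk libraries fewer expressing cells and less RNA per cell cannot be told apart.

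The limma test was run on log2(TPM + 1) for the 14639 genes that reached 1 TPM in 3 or more libraries. A gene was called differentially expressed where its absolute log2 fold change was 1 or more and its unadjusted p was under 0.01, and Benjamini-Hochberg adjusted p over all genes tested are given beside it. In the following, rose and fell are used of genes that met this criterion. Shares of all tested genes are given for this criterion, for adjusted p under 0.05 and for groups without overlap. None is given for the counts at an unadjusted p under 0.05. Of the 43 genes 41 were tested. The other two were PSMA8, the alpha subunit of the testis proteasome, which was listed at 0 in all 12 libraries, and PSMB11, the beta subunit of the thymus, which was listed at 0.02 TPM in HG replicate 1 and at 0 in the others.

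Promoter windows of 300 bases, from 250 before to 50 after the annotated start, were taken from RefSeq on GRCh38.p14 and matched by symbol for 38 of the 43 genes (PSMA7, PSMB1, PSMB6, PSMB7 and PSMD4 had no entry). They were searched on both strands for the core of the antioxidant response element, TGACNNNGC, the element bound by NFE2L1 and NFE2L2, of which NFE2L1 is known to raise the whole set of subunit genes when proteasome activity falls. The letters were present in 11 of the 38 windows (28.9%) and in 13.6% of all 27305 windows. The windows with them belonged to PSMB3, PSMB9, PSMC4, PSMD1, PSMD3, PSMD5, PSMD9, PSMD12, PSME1, PSME2 and PSME4. The CCAAT box, CCAAT, bound by NF-Y, was present in 18 of the 38 windows (47.4%, against 35.7% of all), and the GC box, GGGCGG, bound by Sp1, in 25 (65.8%, against 44.6%). The core of the interferon-stimulated response element, bound by IRF factors, was present in 5 (13.2%, against 3.65%), those of PSMA4, PSMB4, PSMB10, PSME1 and PSME2, and the core of the interferon-gamma activated site, TTCNNNGAA, in 5 (13.2%, against 7.88%), those of PSMA2, PSMA8, PSMC4, PSMD3 and PSME3. Matches of different motifs may share bases.

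The upstream sequences of PSMD12 and PSMB3 are shown because these genes were called in opposite directions in si-FGF9 cells while both hold the antioxidant response element letters. Each is printed 5′ to 3′ on the strand of its gene from base 250 before the RefSeq start up to the first exon of GENCODE 29, with antioxidant response element and CCAAT letters in capitals. PSMD12 lies on the minus strand (chr17:67366628-67366827), and its match begins 165 bases before the start. PSMB3 lies on the plus strand (chr17:38752491-38752735), and its antioxidant response element match begins 104 bases before the start, with CCAAT letters 55 and 13 bases before it.
PSMD12: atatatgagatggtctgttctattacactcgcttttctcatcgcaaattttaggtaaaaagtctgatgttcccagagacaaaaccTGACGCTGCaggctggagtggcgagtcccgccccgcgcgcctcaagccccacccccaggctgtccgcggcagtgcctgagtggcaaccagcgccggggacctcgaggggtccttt
PSMB3: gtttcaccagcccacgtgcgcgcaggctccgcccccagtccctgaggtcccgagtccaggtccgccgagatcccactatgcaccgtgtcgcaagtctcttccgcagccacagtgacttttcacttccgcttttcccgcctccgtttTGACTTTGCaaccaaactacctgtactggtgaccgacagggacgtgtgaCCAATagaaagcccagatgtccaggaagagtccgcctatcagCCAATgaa

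By GENCODE 29 on GRCh38, PSMB3 lies at chr17:38752736-38764231, PSMB10 at chr16:67934502-67937087, PSMC6 at chr14:52707172-52728587, PSMD8 at chr19:38374536-38383824, PSMD10 at chrX:108084207-108091618, PSMD12 at chr17:67337916-67366627 and PSMD14 at chr2:161308038-161411717, and the values are for whole genes.

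In NG cells the subunit genes were expressed at a high level and within a moderate range. The highest were the beta subunits PSMB7, at 373 ± 2.34 TPM (mean ± SD, n = 3, as for all values so written), PSMB1, at 354 ± 27.8 TPM, and PSMB4, at 352 ± 4.75 TPM, followed by the alpha subunit PSMA7, at 339.5 ± 17.5 TPM. The lowest of the 41 tested was PSME4, the activator PA200, at 17.03 ± 1.56 TPM, and next came the base chaperone PSMD5, at 25.1 ± 1.9 TPM. The 43 genes together took 0.544% to 0.764% of the TPM of a library.

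On the deposited values, the levels of the core subunits, which enter the 20S particle in equal numbers, were less even in the other groups than in NG. Among the 14 core genes the ratio of the highest to the lowest TPM was 5.24 to 5.95 for NG, 6.30 to 10.4 for HG, 11.7 to 15.2 for si-FGF9 and 7.92 to 11.5 for HG+OE-FGF9. Every library of the other groups was above the NG range. In si-FGF9 the highest gene was PSMB3 and the lowest PSMA5. The log2 fold change of PSMA5 in si-FGF9 versus NG was -0.56, and 1.09 after the GC correction described below. The ratio was not computed on GC-corrected values. The same ratio among the 17 genes of base and lid was 4.59 to 5.39 for NG, 4.72 to 12.1 for HG, 12.7 to 18.5 for si-FGF9 and 7.86 to 11.6 for HG+OE-FGF9, where HG replicate 3 fell within the NG range.

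The plot of all members by library shows values above and below the NG mean within the same class, as for PSMC4 and PSMC6 in the base.

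**Figure D1:**
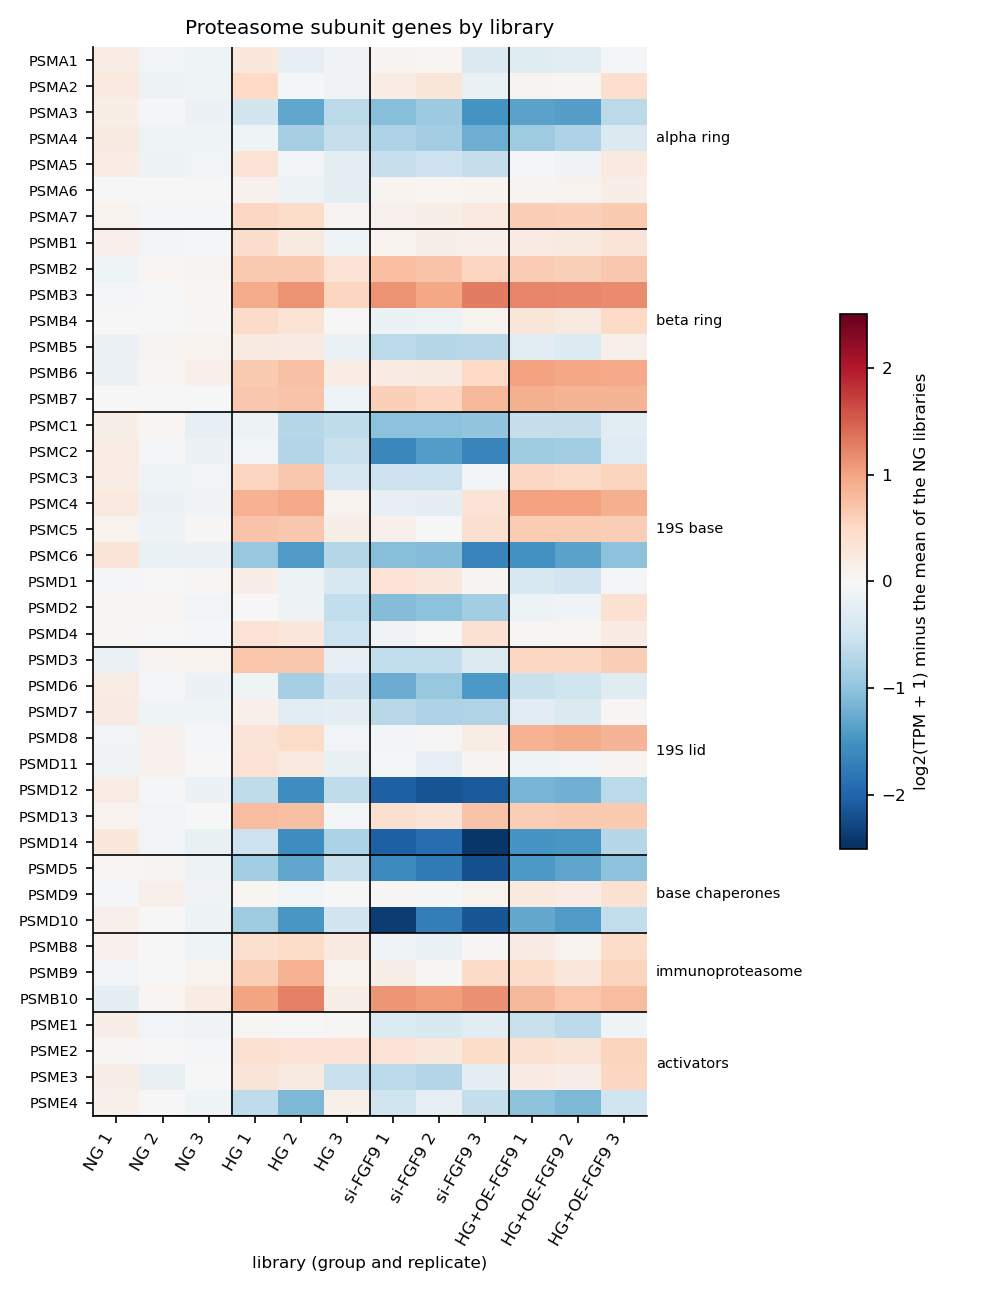
Each row is one of the 41 tested genes, sorted by class, and each column is one of the 12 libraries. The colour gives log2(TPM + 1) minus the mean of the 3 NG libraries, from blue (lower) to red (higher), and PSMB3 and PSMB10 are red while PSMC6, PSMD12, PSMD14, PSMD5 and PSMD10 are blue in most libraries outside NG, with HG replicate 3 nearer to NG than HG replicates 1 and 2 for PSMB3, PSMB10 and PSMC6.

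In HG versus NG, 1 of the 41 genes was called, against 24.4% of all tested genes. PSMC6, an ATPase of the base, fell, and 0 genes rose by limma, against 22.7% of all tested genes that were called lower and 1.65% called higher (12 members were higher and 10 lower at an unadjusted p under 0.05). PSMC6 was measured at 115, 82.2 and 83.9 TPM in NG and 47.8, 34.3 and 56.5 TPM in HG, and all HG libraries were below all NG libraries. Its log2 fold change was -1.02 ± 0.23 (± SE) with an adjusted p of 0.00412 (limma), and with a correction for GC content, described below, the value was 0.07 and the call was lost. The call was also lost without NG replicate 1 or without HG replicate 2, and without HG replicate 3 there were 7 calls, 2 higher (PSMB3 and PSMB10) and 5 lower (PSMC6, PSMD5, PSMD10, PSMD12 and PSMD14). The share of all genes called without HG replicate 3 is not given.

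By an adjusted p under 0.05, without a minimum fold change, 10 of the 41 genes were higher in HG and 7 were lower, against 8.53% and 40.5% of all tested genes. Those higher were the alpha subunit PSMA7, the beta subunits PSMB2, PSMB3 and PSMB6, the base ATPases PSMC4 and PSMC5, all 3 immunoproteasome subunits and the activator PSME2. Those lower were the alpha subunit PSMA3, the ATPases PSMC1 and PSMC6, the lid subunits PSMD12 and PSMD14 and the base chaperones PSMD5 and PSMD10. The HG and NG libraries did not overlap for 7 genes that were higher and 6 that were lower in HG, against 10.7% and 46.5% of all tested genes.

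The largest positive log2 fold change belonged to PSMB3, a non-catalytic beta subunit. It was measured at 302, 303 and 317 TPM in NG and 582, 670.4 and 445 TPM in HG, a log2 fold change of 0.86 ± 0.14 (adjusted p = 0.0012, limma). All 3 HG libraries were above all NG libraries, with HG replicate 3 nearest to them. PSMB10, the immunoproteasome subunit with trypsin-like activity, was second, at 33.4, 40.8 and 45.1 TPM in NG and 79.4, 96.5 and 43.8 TPM in HG and a log2 fold change of 0.80 ± 0.23 (adjusted p = 0.0142), and HG replicate 3 lay within the NG range. PSMC4, an ATPase of the base, was at 62.8, 47.5 and 50.0 TPM in NG and 97.0, 103 and 56.1 TPM in HG with a log2 fold change of 0.63 ± 0.23 (adjusted p = 0.04), again with HG replicate 3 among the NG values. All 3 genes stayed higher in HG under every scaling that was tried, with 1.01, 0.66 and 0.72 after GC correction.

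Below zero, after PSMC6, came 2 lid subunits. PSMD14, the deubiquitinase of the lid, was measured at 89.2, 70.6 and 65.8 TPM in NG and 51.2, 24.6 and 42.8 TPM in HG, with no overlap and a log2 fold change of -0.96 ± 0.28 (adjusted p = 0.0147, limma). PSMD12, a structural lid subunit, was at 56.1, 47.4 and 44.3 TPM in NG and 31.2, 16.1 and 31.1 TPM in HG, with no overlap and a log2 fold change of -0.94 ± 0.24 (adjusted p = 0.00742). HG replicate 2 was the lowest library of these 6 for both genes. After GC correction their log2 fold changes were 0.06 and 0.17, so that the direction was not kept. The base chaperones PSMD10, also known as gankyrin, and PSMD5 were at -0.93 and -0.90 on the log2 scale (adjusted p = 0.0135 and 0.00583), each with no overlap, whereas PSMD9, the remaining chaperone, was at -0.01 (adjusted p = 0.979). The GC-corrected values of PSMD10 and PSMD5 were 0.00 and 0.06.

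By class, HG versus NG had a median log2 fold change of -0.01 for the alpha ring, 0.43 for the beta ring, -0.11 for the base, 0.00 for the lid, -0.90 for the base chaperones, 0.52 for the immunoproteasome and 0.01 for the activators. The median over the 41 genes was 0.03, and that over all tested genes was -0.39.

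In si-FGF9 versus NG, 11 of the 41 genes were called, against 47.6% of all tested genes. PSMB3 and PSMB10 rose, against 5.36% of all tested genes called higher. The lid subunits PSMD14, PSMD12 and PSMD6, the base chaperones PSMD10 and PSMD5, the base ATPases PSMC2, PSMC6 and PSMC1 and the alpha subunit PSMA3 fell, 9 genes in all, against 42.2% of all tested genes called lower. With the GC correction 12 genes were called higher and 0 lower by limma, against 12.3% and 12% of all genes (27 and 5 members at an unadjusted p under 0.05). With median-of-ratios scaling 9 were higher and 4 lower (PSMD5, PSMD10, PSMD12 and PSMD14), against 15% and 22.3% of all genes. PSMB3 and PSMB10 were called higher under both. With GC content and length both corrected, 12 were called higher and 1 lower (PSMD10), and the calls of PSMB3 (0.86) and PSMB10 (0.62) were lost. The share of all genes called under that setting is not given.

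PSMD14 had the largest decrease. It was measured at 89.2, 70.6 and 65.8 TPM in NG and 17.4, 19.1 and 13.0 TPM in si-FGF9, so that every si-FGF9 library was far below every NG library, and the log2 fold change was -2.13 ± 0.28 (adjusted p = 4.16e-05, limma). PSMD12 followed, at 56.1, 47.4 and 44.3 TPM in NG and 11.1, 10.2 and 10.7 TPM in si-FGF9 and a log2 fold change of -2.10 ± 0.24 (adjusted p = 1.84e-05). PSMD10 came after these, at 78.4, 72.2 and 65.2 TPM in NG and 13.1, 20.8 and 15.6 TPM in si-FGF9 and -2.08 ± 0.27 (adjusted p = 3.59e-05). None of these 3 genes had an overlap between the groups. Their GC-corrected log2 fold changes were smaller, -0.69, -0.45 and -0.63 (adjusted p = 0.00682, 0.0177 and 0.00427), and PSMD5 went from -1.84 to -0.37, each under the minimum. These 4 genes kept their negative sign under every scaling that was tried.

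The other genes that fell did not keep it under both GC corrections. PSMC2, an ATPase, was at -1.56 ± 0.21 (adjusted p = 4.21e-05) on the log2 scale and at 0.06 after GC correction. PSMC6, PSMD6 and PSMA3 went from -1.27, -1.21 and -1.15 to 0.36, 0.43 and 0.50. PSMC1 went from -1.01 to -0.29, and to 0.06 with length also corrected. Its call was lost without NG replicate 1 or 2, that of PSMB10 without NG replicate 1 and that of PSMA3 without si-FGF9 replicate 3. PSMC1 is also uncertain because its processed pseudogene PSMC1P5 was listed at 0, 7.41 and 0 TPM for NG, 67.8, 1.79 and 0 for HG, 51.3, 0 and 0 for si-FGF9 and 31.6, 34.0 and 4.80 for HG+OE-FGF9, and reads of the parent gene and its copies may have been divided between them. Of 42 listed pseudogenes of the members, 2 reached 1 TPM in any library, PSMC1P5 and PSMC1P1.

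Among the genes that rose, PSMB3 was measured at 302, 303 and 317 TPM in NG and 668, 603 and 743 TPM in si-FGF9, with a log2 fold change of 1.12 ± 0.14 (adjusted p = 3.21e-05, limma) and of 1.57 after GC correction. PSMB10 was at 33.4, 40.8 and 45.1 TPM in NG and 85.9, 82.8 and 88.4 TPM in si-FGF9, with 1.10 ± 0.23 (adjusted p = 0.00115) and 1.13 after GC correction. For both genes every si-FGF9 library was above every NG library. PSMB2, a beta subunit, came after these at 64.9, 72.6 and 74.3 TPM in NG and 120.0, 116 and 103 TPM in si-FGF9, with no overlap, but its log2 fold change of 0.67 ± 0.13 (adjusted p = 0.000466) was under the minimum.

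By an adjusted p under 0.05, 6 genes were higher (PSMB2, PSMB3, PSMB7, PSMB10, PSMD13 and PSME2) and 15 were lower in si-FGF9, against 11.6% and 57.7% of all tested genes. The groups did not overlap for 10 genes that were higher and 18 that were lower, against 14.3% and 62.1%. The class medians were -0.09 for the alpha ring, 0.31 for the beta ring, -0.37 for the base, -0.63 for the lid, -1.84 for the base chaperones, 0.21 for the immunoproteasome and -0.38 for the activators. The median over the 41 genes was -0.08 and that over all tested genes was -0.79. HG and si-FGF9 were both compared with the same NG libraries, so that a chance deviation of NG enters both comparisons.

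In HG+OE-FGF9 versus HG, 0 of the 41 genes were called by limma, against 5.61% of all tested genes, 2.94% called higher and 2.67% called lower. At an adjusted p under 0.05 there was 1 gene, PSMD8, a lid subunit, which was higher, against 4.82% of all tested genes called higher and 4.71% called lower. PSMD8 was measured at 158, 173 and 119.8 TPM in HG and 231, 241 and 229 TPM in HG+OE-FGF9, with a log2 fold change of 0.65 ± 0.14 (adjusted p = 0.0166, limma) and of 0.59 after GC correction. All HG+OE-FGF9 libraries were above all HG libraries, which themselves ranged more widely. At an unadjusted p under 0.05, 5 genes were higher (PSMB3, PSMB6, PSMB7, PSMD8 and PSMD9) and 1 was lower (PSME1).

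The next largest positive values were those of 2 constitutive catalytic subunits. PSMB6, the subunit with caspase-like activity, was at 328, 346 and 236 TPM in HG and 418, 407 and 403 TPM in HG+OE-FGF9 and PSMB7, with trypsin-like activity, at 596, 616 and 348 TPM in HG and 690.4, 674 and 672 TPM in HG+OE-FGF9, and neither overlapped. Their log2 fold changes were 0.45 ± 0.15 and 0.43 ± 0.18 (adjusted p = 0.0838 for PSMB6 and 0.154 for PSMB7, limma). The largest negative value was that of the activator PSME1, at 258, 254 and 258 TPM in HG and 171, 161 and 235 TPM in HG+OE-FGF9, with no overlap and a log2 fold change of -0.46 ± 0.14 (adjusted p = 0.0631). PSME1 was at -0.52 after GC correction (adjusted p = 0.0159, limma) and at -0.49 with quantile normalization (adjusted p = 0.0349). With median-of-ratios scaling PSME1 was at -0.32 (adjusted p = 0.1). PSMD5 and PSME4 followed, at 13.4, 9.65 and 16.8 TPM in HG and 8.65, 9.52 and 11.7 TPM in HG+OE-FGF9 and at 10.6, 7.23 and 18.7 TPM in HG and 7.85, 7.23 and 11.7 TPM in HG+OE-FGF9 respectively, and the groups overlapped for both. Their log2 fold changes were -0.36 ± 0.22 and -0.34 ± 0.28 (adjusted p = 0.3 for PSMD5 and 0.443 for PSME4). In all, 6 genes were higher and 1 was lower without overlap, against 12.2% and 9.95% of all tested genes. The 3 genes with the largest decrease in si-FGF9 did not pass the test here and were at -0.25 for PSMD14, -0.07 for PSMD12 and -0.17 for PSMD10. The class medians lay between -0.17 (base chaperones) and 0.08 (beta ring), the median of the 41 genes was 0.03, and that of all tested genes was -0.13.

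The position of a gene in these comparisons went with the base composition of its transcript. The GC content of a gene's longest transcript ranged from 32.0% for PSMD14 to 60.1% for PSMB10. Across the 41 genes, which are not independent replicates and share the same libraries, the Spearman rank correlation of log2 fold change with GC content (rho) was 0.65 in HG versus NG, 0.49 in si-FGF9 versus NG and 0.53 in HG+OE-FGF9 versus HG. Across all 14191 tested genes with a GC content it was 0.64, 0.57 and 0.29. The 16 members with a GC content under 45% had median log2 fold changes of -0.49, -1.05 and -0.17 in the 3 comparisons, and the 25 others had 0.27, -0.02 and 0.12.

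A correction that subtracts from each library its smooth trend with GC content, which also removes the overall shift of the library, took the rho of the members to -0.06 in HG versus NG, -0.06 in si-FGF9 versus NG and -0.07 in HG+OE-FGF9 versus HG. After it, the median log2 fold change of the members was 0.52 in HG versus NG, 0.50 in si-FGF9 versus NG and 0.09 in HG+OE-FGF9 versus HG, beside -0.02, -0.07 and -0.05 over all genes. In HG versus NG 7 members were then called higher (PSMA2, PSMA5, PSMA6, PSMB1, PSMB2, PSMB3 and PSMB9) and 0 lower by limma, against 3.78% and 3.06% of all genes so called (29 and 0 of the members at an unadjusted p under 0.05). In si-FGF9 versus NG 12 were called higher (PSMA2, PSMA5, PSMA6, PSMB1, PSMB2, PSMB3, PSMB7, PSMB9, PSMB10, PSMD1, PSMD13 and PSME4) and 0 lower, against 12.3% and 12%. In HG+OE-FGF9 versus HG 0 were called in either direction by limma, against 3.03% and 2.18%, and 4 were higher and 2 lower at an unadjusted p under 0.05. The standard deviation of the members' log2 fold changes went from 0.52 to 0.37, from 0.83 to 0.68 and from 0.25 to 0.22. Whether the trend with GC content arose in the cells or in the preparation of the libraries was not tested.

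**Figure D2:**
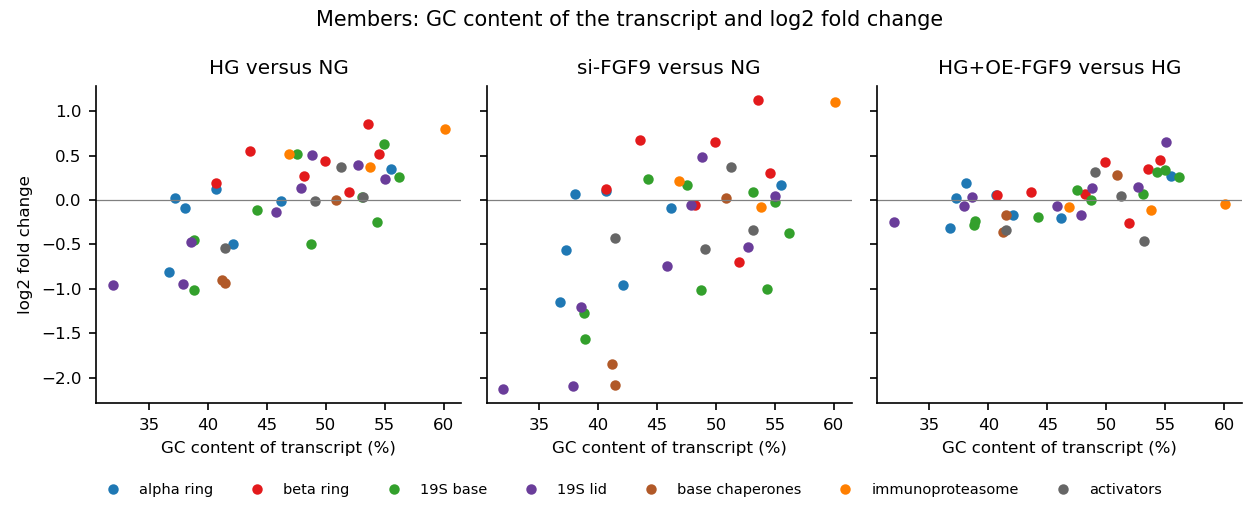
Each point is one of the 41 tested genes, coloured by class, with the GC content of its longest transcript (%) on the x axis and its log2 fold change as deposited on the y axis, one panel per comparison. Genes of low GC content such as PSMD14 (32.0%) lie at the bottom in si-FGF9 versus NG, and Spearman's rho is 0.65, 0.49 and 0.53 in the 3 panels.

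**Figure D3:**
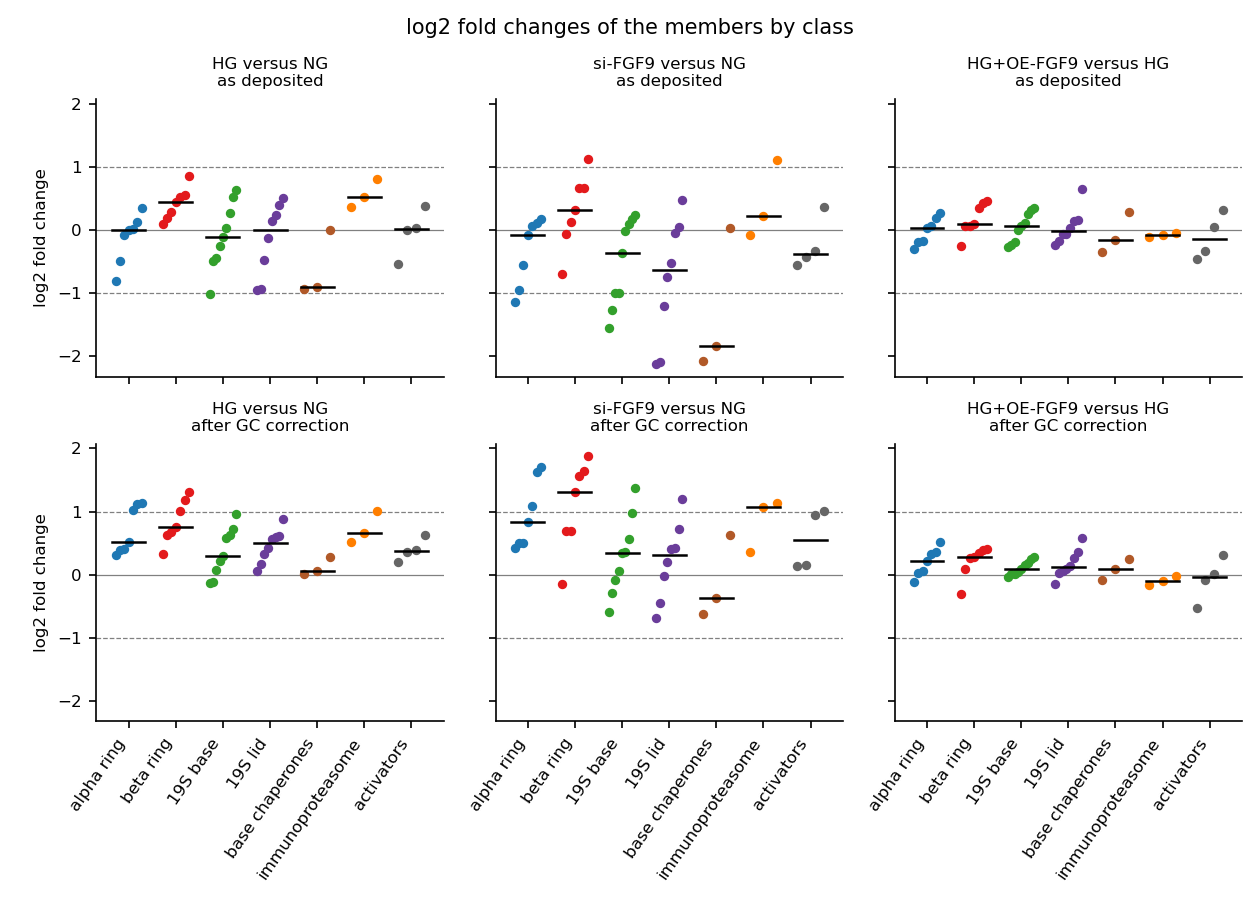
Each point is a gene and each black line the median of its class, with the log2 fold change on the y axis, dashed lines at the minimum of 1 in either direction, the 3 comparisons in columns, and the deposited values (top) and GC-corrected values (bottom) in rows. The median of the beta ring lies above those of the base and the lid in HG versus NG (0.43 as deposited) and si-FGF9 versus NG (0.31) in both rows, and that of the base chaperones lies lowest in each of these 4 panels.

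The summed level of the 14 core genes relative to that of the 17 base and lid genes differed between groups. The order of the groups was the same after GC correction. The measure was chosen after the values were seen and is given without a test. The 14 core genes summed to 3461, 3249 and 3273 TPM for NG, 4533, 4160 and 3243 for HG, 3777, 3731 and 3930 for si-FGF9 and 4381, 4312 and 4698 for HG+OE-FGF9. The 17 base and lid genes summed to 1697, 1551 and 1495 TPM for NG, 1832, 1639 and 1223 for HG, 1109, 1103 and 1281 for si-FGF9 and 1626, 1645 and 1849 for HG+OE-FGF9. The ratio of the first sum to the second was 2.04, 2.10 and 2.19 for NG, 2.48, 2.54 and 2.65 for HG, 3.41, 3.38 and 3.07 for si-FGF9 and 2.69, 2.62 and 2.54 for HG+OE-FGF9. It was thus above the NG range in every other library, highest in si-FGF9, and overlapping between HG and HG+OE-FGF9. HG replicate 3, whose sums were the lowest of its group, had the highest ratio of its group.

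After the GC correction the ratio was 1.94 ± 0.0933 for NG, 2.59 ± 0.104 for HG, 3.41 ± 0.105 for si-FGF9 and 2.76 ± 0.138 for HG+OE-FGF9, and without PSMC1 it was 2.40 ± 0.0654, 2.81 ± 0.123, 3.58 ± 0.226 and 2.85 ± 0.0703. The beta ring was above NG in every other library, with sums of 1796, 1793 and 1841 TPM for NG, 2755, 2773 and 1930 for HG, 2376, 2307 and 2654 for si-FGF9 and 2897, 2831 and 2982 for HG+OE-FGF9. The alpha ring summed to 1665, 1456 and 1432 TPM in NG and to 1276 to 1777 TPM over the other libraries, overlapping with NG. The 3 base chaperones, which help to build the ATPase ring and leave before the particle is complete, summed to 149.4 to 170.2 TPM for NG, 97.5 to 133 for HG, 86.9 to 90.8 for si-FGF9 and 110.6 to 143 for HG+OE-FGF9, below NG in every library.

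**Figure D4:**
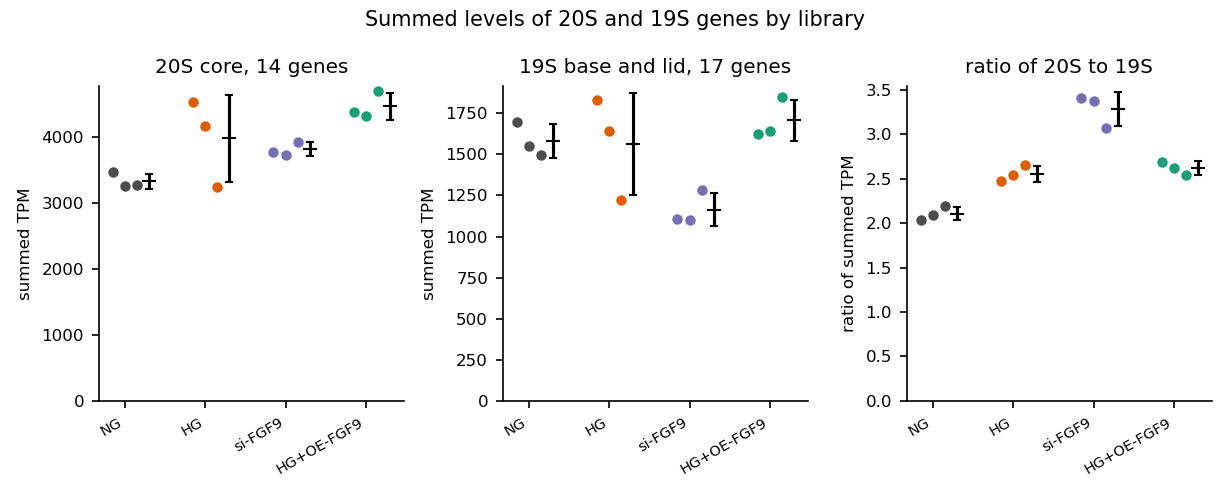
Points are libraries, and the bars beside them give the mean and SD of the 3 libraries of a group. The panels show the summed TPM of the 14 core genes, the summed TPM of the 17 base and lid genes, and their ratio, which lies between 2.04 and 2.19 in NG and between 3.07 and 3.41 in si-FGF9.

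The immunoproteasome subunits were expressed in all 12 libraries, at lower levels than their constitutive counterparts, and no interferon treatment is described. PSMB8, with chymotrypsin-like activity, was measured at 66.0, 61.6 and 57.0 TPM in NG, 81.5, 85.3 and 72.0 TPM in HG, 56.6, 54.9 and 63.0 TPM in si-FGF9 and 71.3, 65.5 and 85.0 TPM in HG+OE-FGF9. Its counterpart PSMB5 was at 128, 149 and 151 TPM in NG, 167, 164 and 127 TPM in HG, 88.4, 85.8 and 88.1 TPM in si-FGF9 and 117, 112 and 155 TPM in HG+OE-FGF9. PSMB8 was above NG in all HG libraries and overlapped with NG in si-FGF9, whereas PSMB5 was lower in the si-FGF9 libraries than in any other. For si-FGF9 versus NG the log2 fold change of PSMB5 was -0.70 ± 0.15 (adjusted p = 0.00155, limma), under the minimum but with no overlap, -0.15 after GC correction, and of the opposite sign (0.12) with median-of-ratios scaling. PSMB8 had -0.08 in the same comparison (adjusted p = 0.625), 0.36 after GC correction and 0.73 with median-of-ratios scaling.

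PSMB9 was measured at 43.2, 44.9 and 48.2 TPM in NG, 69.4, 83.4 and 48.6 TPM in HG, 50.1, 46.2 and 63.4 TPM in si-FGF9 and 63.2, 55.7 and 67.2 TPM in HG+OE-FGF9. Its counterpart PSMB6 was at 188, 213 and 228 TPM in NG and 241, 243 and 294 TPM in si-FGF9 and in HG and HG+OE-FGF9 as given above. PSMB7, the counterpart of PSMB10, was at 376, 371 and 372 TPM in NG and 565, 543 and 664 TPM in si-FGF9. PSMB10 in HG+OE-FGF9 was at 70.0, 64.2 and 68.1 TPM. PSMB8 and PSMB9 lie head to head on chromosome 6 (32840717 to 32844703 and 32844136 to 32859585 on GRCh38), overlapping each other and PSMB8-AS1, and PSMB9 also overlaps TAP1, so that without a stated strand in the counting their reads may be shared.

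Compared within each library, the log2(TPM + 1) of PSMB8 minus that of PSMB5 was -1.20 ± 0.230 for NG, -0.93 ± 0.106 for HG, -0.58 ± 0.0907 for si-FGF9 and -0.78 ± 0.0766 for HG+OE-FGF9. The difference between groups was 0.27 for HG versus NG (p = 0.2, exact two-sided permutation test), 0.62 for si-FGF9 versus NG (exact p = 0.1) and, between HG+OE-FGF9 and HG, 0.15 (exact p = 0.2), where 0.1 is the smallest p that 3 against 3 libraries allow. The si-FGF9 libraries did not overlap with NG, while the others overlapped with their controls. PSMB8 made up 30.2% ± 3.44 of the sum of PSMB8 and PSMB5 in NG and 39.9% ± 1.54 in si-FGF9. In si-FGF9 versus NG it was PSMB5 and not PSMB8 that had passed an adjusted p under 0.05 on the deposited values. After GC correction it was PSMB8 (0.36, adjusted p = 0.0148, limma) and not PSMB5 (-0.15, adjusted p = 0.33). With median-of-ratios scaling it was again PSMB8 (0.73, adjusted p = 0.00075) and not PSMB5 (0.12, adjusted p = 0.499).

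For PSMB9 minus PSMB6 the difference was 0.00 in HG versus NG (exact p = 1), -0.09 in si-FGF9 versus NG (exact p = 0.3) and -0.53 between HG+OE-FGF9 and HG (exact p = 0.1). The share of PSMB9 in the pair was 18.0% ± 1.27 in HG and 13.2% ± 1.12 in HG+OE-FGF9, with no overlap. For PSMB10 minus PSMB7 it was 0.37 in HG versus NG, 0.44 in si-FGF9 versus NG and -0.47 in HG+OE-FGF9 versus HG (exact p = 0.1 each), each with no overlap. The share of PSMB10 in its pair was 9.63% ± 1.34 for NG, 12.2% ± 1.23 for HG, 12.7% ± 0.846 for si-FGF9 and 9.04% ± 0.293 for HG+OE-FGF9. After GC correction the values for HG and si-FGF9 versus NG were -0.10 and -0.18 for PSMB10 minus PSMB7, so that their direction turned, and 0.38 and 0.37 for PSMB9 minus PSMB6. Over the 9 tests of the 3 pairs the lowest Benjamini-Hochberg adjusted value was 0.18 (exact permutation).

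**Figure D5:**
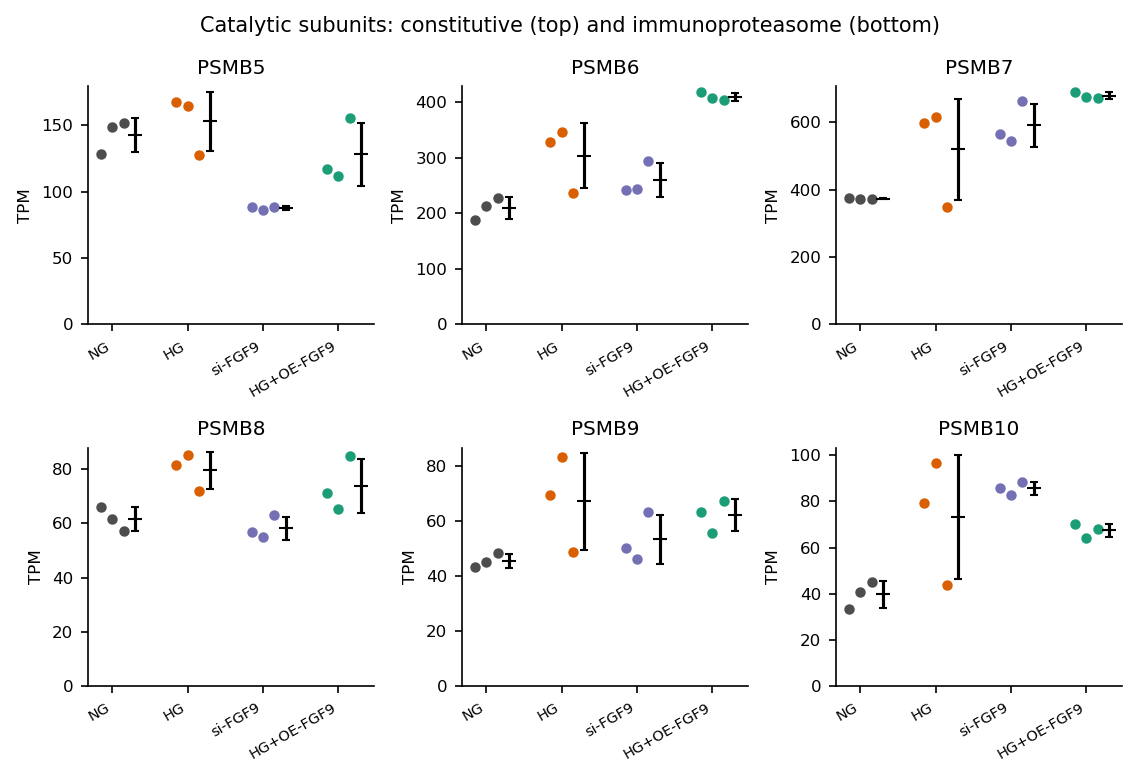
TPM of the constitutive catalytic subunits PSMB5, PSMB6 and PSMB7 (top) and of the immunoproteasome subunits PSMB8, PSMB9 and PSMB10 (bottom), with a point per library and the mean and SD of each group of 3 beside the points. PSMB5 is lowest in si-FGF9 (85.8 to 88.4 TPM), PSMB6 is highest in HG+OE-FGF9 (403 to 418 TPM), and PSMB10 is higher in all si-FGF9 libraries (82.8 to 88.4 TPM) than in NG (33.4 to 45.1 TPM).

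The activators PSME1 and PSME2, which form the PA28 cap that is induced with the immunoproteasome, differed from each other. PSME2 was measured at 306, 302 and 289.5 TPM in NG, 391, 387 and 383 TPM in HG, 386, 361 and 413 TPM in si-FGF9 and 389.6, 375 and 439 TPM in HG+OE-FGF9, and both HG and si-FGF9 were above NG without overlap, with log2 fold changes of 0.37 ± 0.10 for HG and 0.37 ± 0.10 for si-FGF9 (adjusted p = 0.0118 for HG and 0.00728 for si-FGF9, limma). PSME1 was at 281, 240.0 and 236 TPM in NG and 198, 194 and 206 TPM in si-FGF9, with log2 fold changes against NG of 0.03 for HG and -0.33 for si-FGF9 (adjusted p = 0.884 and 0.0543), the latter of the opposite sign with the GC correction (0.14), and HG+OE-FGF9 was below HG as given above. PSME3, the nuclear activator PA28 gamma, and PSME4 did not pass an adjusted p under 0.05 in any of the 3 comparisons.

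Genes that assemble or assist the proteasome were counted from a list of 15. In HG versus NG 2 rose, the assembly chaperone PSMG3 (1.02) and the ubiquitin receptor ADRM1 (1.01), and 2 fell, the deubiquitinase UCHL5 (-1.47) and AKIRIN2 (-1.18), which carries proteasomes into the nucleus (log2 fold changes, adjusted p = 0.00167, 0.00606, 0.00207 and 0.00101, limma), against 1.65% of all tested genes called higher and 22.7% called lower. In si-FGF9 versus NG PSMG3 rose (1.43) and 6 fell, of which UCHL5 (-2.75), AKIRIN2 (-2.31) and the deubiquitinase USP14 (-2.29) changed most, against 5.36% of all tested genes called higher and 42.2% called lower. The others were the ubiquitin ligase UBE3C, the adaptor ECPAS and the inhibitor PSMF1. In HG+OE-FGF9 versus HG 0 were called by limma, against 2.94% of all tested genes called higher and 2.67% called lower (1 of the list was higher and 1 lower at an unadjusted p under 0.05). The higher one was PSMG4, at 0.86 with no overlap (adjusted p = 0.0063, limma) and at 0.80 after GC correction. After GC correction the HG calls of PSMG3 (0.94), ADRM1 (0.70) and UCHL5 (-0.35) were lost. Those of USP14 (-0.64), ECPAS (-0.46) and PSMF1 (-0.39) in si-FGF9 were lost too, while UCHL5 and AKIRIN2 had -1.13 and -1.86 there. POMP, the chaperone that joins the rings of the core, was at 0.13, 0.13 and 0.04 in the 3 comparisons, and at 1.24, 1.73 and 0.37 after GC correction. With that correction POMP and SEM1 (1.09 and 1.68) were called higher in HG and in si-FGF9 versus NG. TXNL1 (1.06) was also called higher in HG, and PSMG4 (1.25) in si-FGF9. Of all genes 3.78% and 12.3% were so called. On the deposited values the median of the list was -0.04, -0.85 and 0.03.

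Of 8 regulators of proteasome gene transcription, 3 fell in HG versus NG and 6 in si-FGF9 versus NG, and 0 rose in either by limma (1 and 0 were higher at an unadjusted p under 0.05). Of all tested genes 22.7% and 42.2% were called lower and 1.65% and 5.36% higher. NFE2L2, the stress-responsive factor that binds the antioxidant response element, was measured at means of 63.7 TPM for NG, 18.5 for HG, 11.5 for si-FGF9 and 11.7 for HG+OE-FGF9. Against NG its log2 fold change was -1.89 ± 0.37 for HG and -2.39 ± 0.37 for si-FGF9 (adjusted p = 0.00222 and 0.000119, limma), and -1.31 and -1.42 after GC correction. DDI2, the protease that activates NFE2L1, had -1.42 and -2.17, which became -0.58 and -0.84 after GC correction, under the minimum. NGLY1, the glycanase that acts on the same factor, had -1.09 and -1.49, which became 0.04 and 0.16. In si-FGF9 MAFG (-1.43), NFE2L1 itself (-1.13) and MAFF (-1.002) also fell. With median-of-ratios scaling these calls were lost, at -0.69, -0.31 and -0.21, and that of NFE2L1 also with the GC correction (-0.78). In HG+OE-FGF9 versus HG 0 of the 8 were called by limma, against 2.94% of all tested genes called higher and 2.67% called lower (2 of the 8 were higher and 0 lower at an unadjusted p under 0.05). The list medians were -0.82, -1.28 and 0.17.

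Of 11 genes for ubiquitin and the delivery of substrates, 3 fell in HG versus NG, the shuttle factors UBQLN1 (-1.64), UBQLN2 (-1.04) and RAD23B (-1.01), and 0 rose by limma (4 were lower and 0 higher at an unadjusted p under 0.05), against 22.7% of all tested genes called lower and 1.65% called higher. In si-FGF9 versus NG these 3 fell again (-2.40, -1.92 and -1.95) with NPLOC4, a cofactor of the segregase VCP (-1.01), and 0 rose by limma (5 were lower and 1 higher at an unadjusted p under 0.05), against 42.2% and 5.36%. After GC correction none of these calls was kept. UBQLN1, UBQLN2 and RAD23B were then at -0.52, -0.35 and -0.16 in HG versus NG and at -0.74, -0.80 and -0.62 in si-FGF9 versus NG, with NPLOC4 at -0.41. In HG+OE-FGF9 versus HG 0 were called by limma, against 2.94% of all tested genes called higher and 2.67% called lower, and 0 of the list had an unadjusted p under 0.05.

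Of 12 partners of the immunoproteasome in antigen processing, 4 fell and 0 rose in HG versus NG by limma (6 were lower and 0 higher at an unadjusted p under 0.05), against 22.7% and 1.65% of all tested genes. They were the trimming peptidases ERAP1 (-1.56) and ERAP2 (-1.17), B2M, the light chain of class I molecules (-1.05), and the transcription factor IRF1 (-1.04). In si-FGF9 versus NG the 4 genes were at -2.52, -1.29, -1.84 and -2.38, and each fell, against 42.2% of all tested genes, with ERAP2 of the opposite sign after GC correction (0.24). In HG+OE-FGF9 versus HG ERAP1 (-1.12) fell (adjusted p = 0.0323, limma), against 2.67% of all tested genes. At an adjusted p under 0.05, 4 of the 12 were lower and 0 higher there, against 4.71% and 4.82% of all tested genes. Among the 4 was TAPBP, at -0.61 (adjusted p = 0.0143, limma) and at -0.67 after GC correction. At an unadjusted p under 0.05, 6 were lower and 0 higher, also after GC correction. At an adjusted p under 0.05 by limma, the 3 immunoproteasome subunits were higher in HG, PSMB10 was higher in si-FGF9, and none was lower in either. Of all tested genes 8.53% and 11.6% were higher and 40.5% and 57.7% lower. IRF1 is known to induce these subunits, and a link with its level was not tested. After GC correction the call of IRF1 in si-FGF9 (-1.87) was kept and the others were lost, with ERAP1 at -0.51, -0.93 and -0.81 and B2M at -0.05, -0.32 and -0.23 in the 3 comparisons, and with ERAP2 at -0.16 and IRF1 at -0.83 in HG versus NG. TAP1, the peptide transporter subunit that neighbours PSMB9, had -0.15, -0.50 and -0.18.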

How the data were processed

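RNA-seq was analysed for 12 libraries of HK2 cells in 4 groups of 3, assigned from the labels. The authors deposited 1 table of the whole series and files per sample with identical values. The unit was inferred from the deposited values as TPM, and the TPM hold no counts, so count models were not run and depth and counting precision are unknown. The submitters' processing notes name Bowtie 0.12.2 and the mouse build mm8, which does not go with the human Ensembl identifiers. The counting tool, its strand setting and the annotation are not given in the sources used here.

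Symbols were found for 62625 of 62703 identifiers and the GC content and length of the longest transcript (GENCODE 29, GRCh38) for 58225. Genes with at least 1 TPM in 3 libraries (14639) were tested on log2(TPM + 1), a scale that understates changes of low genes, with limma 3.58.1 (R 4.3.3, mean-variance trend) in 1 fit of all 12 libraries with group as the only term. The thresholds were a log2 fold change of 1 with p under 0.01, or a Benjamini-Hochberg adjusted p under 0.05. For the GC correction, a natural spline (5 df) of GC content was fitted in each library to the deviations of 14191 genes from their means over libraries and subtracted. On data simulated for HG versus NG, 99% of 200 genes changed by a log2 of 2 and 0.27% of the others among 14639 were called. Exact two-sided permutation tests used scipy 1.17.1 (python 3.11.15).

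Values in every library were given for the catalytic subunits, PSME1, PSME2 and the 3 highest and 3 lowest members by log2 fold change per comparison, and genes of the pathway lists were named where differentially expressed. POMP, SEM1, TXNL1, PSMG4, TAP1, TAPBP, PSMC1P5 and the markers GGT1, PAX8, CDH1 and CDH2 were named after their values were seen. Some genes of the ubiquitin and antigen processing lists are not reported here, and the counts leave them out. The members, the lists, the classes and these choices were made with earlier results of these data known. The 20S to 19S ratio was added after its values were seen. Alternatives covered the filter, pseudocount, libraries in the fit, scaling, GC content and length, replicate block and each library left out.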

Additional observations from a re-analysis of the deposited data

How the results depend on the processing

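For HG versus NG the number of genes called was 1. It was 17 by adjusted p under 0.05, 7 with the GC correction (also with the replicate block), 5 with GC content and length, 2 with median-of-ratios scaling, 10 with the GC correction without HG replicate 3 (chosen after seeing the data), and 0 to 7 with 1 library left out. The median log2 fold change of 0.03 became 0.52, 0.47, 0.52 (GC with replicate block), 0.64 (without HG replicate 3), 0.41 with median of ratios and 0.26 with quantile normalization, and lay between -0.036 and 0.23 with 1 library left out. For si-FGF9 versus NG the 11 calls became 21 by adjusted p and 13 with GC content and length (12 higher and 1 lower). They became 6 with quantile normalization (3 higher and 3 lower) and 9 to 13 with 1 library left out. Its median of -0.08 became 0.50 with GC content (also with the replicate block), 0.42 with GC content and length, 0.74 with median of ratios and 0.12 with quantile normalization, and lay between -0.14 and -0.04 with 1 library left out. For HG+OE-FGF9 versus HG there was 1 call by adjusted p and 0 under the other settings, with a median between -0.09 and 0.16 with 1 library left out. The share of all genes called is given above for adjusted p and GC content, and for median of ratios in si-FGF9 versus NG. It is not given for the other settings, so their counts cannot be set against those of all genes. The GC correction also subtracts the overall shift of a library, and the cause of the other changes was not tested.

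In HG versus NG, GC correction gave PSMA6 1.02 (1.12 with length, 1.02 with the block, 1.32 without HG replicate 3) and PSMC6 0.068 (0.068 with the block, 0.12 without HG replicate 3), of the opposite sign. In si-FGF9 versus NG it gave PSMA3 0.50 (0.50 with the block), PSMA5 1.09 (1.24 with length, 1.09 with the block), PSMC2 0.060 (0.091 and 0.060), PSMC6 0.36 (0.36 and 0.36), PSMD6 0.43 (0.59 and 0.43) and PSME4 1.02 (1.201 and 1.02), and with length it gave PSMC1 0.058 and PSMD11 1.04.

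For the pairs, GC correction gave 0.38 and 0.37 for PSMB9 minus PSMB6 and -0.10 and -0.18 for PSMB10 minus PSMB7 in HG and si-FGF9 versus NG. With 1 library left out, PSMB8 minus PSMB5 lay between 0.18 and 0.40, 0.52 and 0.74, and 0.10 and 0.20 in the 3 comparisons, PSMB9 minus PSMB6 between -0.06 and 0.05, -0.13 and -0.04, and -0.60 and -0.46, and PSMB10 minus PSMB7 between 0.25 and 0.47, 0.32 and 0.54, and -0.54 and -0.39. The 20S to 19S ratio differed by 0.45, 1.18 and 0.06, by 0.647, 1.47 and 0.167 after GC correction, and by 0.398 to 0.487, 1.12 to 1.28 and 0.0247 to 0.113 with 1 library left out.

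A replicate block in the fit gave 1, 11 and 0 calls, those of the fit without it. The deviations of same-numbered libraries correlated between -0.439 and 0.248, and not every library correlated best with its own number, so that the numbers were not taken as pairs. Without the filter, with 1 TPM in all 12 libraries, with 6 libraries in the fit and with p under 0.05 the number of calls stayed within 1.5 times the value reported.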
